A study of Mus musculus with 6 samples.

Results

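The cytosolic ribosome is built from a small and a large subunit, and its protein part is encoded by genes named Rps and Rpl. Of the 51912 genes counted, 83 protein-coding genes carried such a symbol, 51 for the large subunit (Rpl genes with Rplp0, Rplp1 and Rplp2) and 32 for the small subunit (Rps genes with Rpsa). The rule uses the symbol and the biotype and no measured value, and 6 further rows with a fitting symbol were left out as pseudogenes. All 83 passed the filter on low counts, so no member was lost before testing.

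RNA had been read by Smart-Seq2, which amplifies full-length cDNA from little input, in testicular germline stem cells of C57BL/6J pups on postnatal day 4. They had been dissociated enzymatically from testis and sorted for surface THY1 without c-KIT. There were 3 libraries from wild type mice and 3 from mice whose genotype is written Bud31-vKO, in which Bud31, a splicing factor of the spliceosome, is targeted. The labels used here do not spell out the allele, the Cre driver behind the letter v, the number of cells in a library, or whether libraries of a genotype came from separate animals, so p-values measure only the spread between these libraries, which may be technical. The count table heads its columns C1 to C3 and T1 to T3. These were read as wild type 1 to 3 and Bud31-vKO 1 to 3, an assignment that the sample labels do not state.

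Each ribosome holds a single copy of nearly every ribosomal protein, and cells keep the supply of the many proteins in step. The small subunit reads the messenger RNA, and the large subunit forms the peptide bond and lets the new chain out through a tunnel. Most ribosomal protein mRNAs start with an unbroken stretch of C and T, the terminal oligopyrimidine (TOP) motif, through which mTOR signalling and LARP1 govern their translation. The genes are also known for the many processed pseudogene copies that they have left in mammalian genomes, and for a few paralogs that testis uses more than other tissues.

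The start sites of 8 members are printed because their levels or differences recur in the results. They are the most abundant genes per length (Rps3a1, Rpl4, Rplp0, Rps6 and Rps2) and a pair with small unadjusted p-values (Rpl41 and Rps27). To these is added the member with the longest pyrimidine stretch found (Rpl7a). Rpl36, whose unadjusted p was the smallest of all members, had no start entry. Each window holds 30 bases, 15 on either side of the RefSeq start on GRCm38.p6, on the gene's strand, with the longest run of C or T in capitals.
Rps3a1: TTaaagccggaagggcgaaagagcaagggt
Rpl4: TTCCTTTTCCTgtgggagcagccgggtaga
Rplp0: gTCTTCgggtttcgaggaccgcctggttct
Rps6: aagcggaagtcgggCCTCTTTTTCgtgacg
Rps2: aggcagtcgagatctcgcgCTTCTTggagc
Rpl41: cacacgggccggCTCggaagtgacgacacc
Rps27: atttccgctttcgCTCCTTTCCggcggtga
Rpl7a: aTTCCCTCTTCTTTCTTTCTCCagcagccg
The windows lie at chr3:86142654-86142683 on the minus strand for Rps3a1, chr9:64173372-64173401 on the plus strand for Rpl4 and chr5:115559452-115559481 on the plus strand for Rplp0. Those of Rps6 (chr4:86857353-86857382, minus), Rps2 (chr17:24720048-24720077, plus) and Rpl41 (chr10:128549154-128549183, minus) follow. The last are Rps27 at chr3:90213634-90213663 on the minus strand and Rpl7a at chr2:26910792-26910821 on the plus strand.

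The search was for an unbroken run of at least 6 letters C or T within such a window, on the gene's strand only. An entry was found for 63 members, 20 had none, and 35 of the 63 (55.6%) held such a run, 21 of 39 in the large and 14 of 24 in the small subunit. Only the first entry of each gene was used, and 10 members had more than 1. Of 26962 other genes with an entry, 7825 (29%) held one. The run was 21 bases long in Rpl7a, 11 in Rpl4, 10 in Rps6, 9 in Rps27 and 6 in Rps2, while the longest in Rplp0, Rpl41 and Rps3a1 was 5, 3 and 2 bases. The run could lie on either side of the annotated start, and in Rpl4 it lies wholly upstream. A RefSeq start can also lie some bases away from the start used in these cells. A run, long or short, thus describes only these letters.

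The libraries held 13240704 to 18744466 reads and detected 12464 to 22300 genes. Wild type 3 (13762 genes) and Bud31-vKO 2 (12464 genes) detected the fewest genes of their genotypes. Bud31 itself stood at 137, 96.2 and 157 CPM in wild type against 46.9, 67.2 and 79.9 CPM in Bud31-vKO, a log2 difference of -1.01 (SE 0.39, adjusted p = 0.9997 by edgeR's quasi-likelihood test). Levels in CPM were scaled by TMM to the depth of the libraries, and every log2 difference is the edgeR estimate of Bud31-vKO over wild type. The groups did not overlap for Bud31, and reads on the gene remained in every Bud31-vKO library.

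Summed levels of germ cell, stem cell, and T and NK cell markers did not overlap between the genotypes, and those of the other marker lists did. These sums were not tested, and no marker passed the adjusted test. All 13 tested of 14 germ cell markers had log2 differences below 0, their summed level was 3540 to 4497 CPM in wild type against 2007 to 2730 CPM in Bud31-vKO, and Dppa3 had no reads in any library. The germ cell helicase Ddx4 had 565, 797 and 609 CPM in wild type against 238, 503 and 373 CPM in Bud31-vKO. Stem cell markers (10 of 14 tested below 0) summed to 1292 to 1494 CPM against 754 to 1142 CPM, and T and NK cell markers (7 of 10 tested above 0) to 16.3 to 164 CPM against 200 to 566 CPM. Of the latter, Cd69 was at 0 in all 3 wild type libraries, while Cd2 (-1.17), Lck (-0.21) and Il7r (-0.06) had log2 differences below 0. Ptprc alone had 326 CPM in Bud31-vKO 2, against 18.7 and 12.9 CPM in Bud31-vKO 1 and 3. Peritubular and stromal markers (7 of 9 tested below 0) reached 10589 to 21587 CPM in wild type against 8272 to 14728 CPM in Bud31-vKO, and Sertoli markers (10 of 11 tested above 0) 129 to 444 CPM and 192 to 1630 CPM. Leydig, endothelial, macrophage and erythroid lists summed to at most 233 CPM in any library and overlapped between the genotypes. The part of these markers in the results on ribosomal protein genes was not tested.

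Ribosomal protein genes together took 3.09%, 2.68% and 1.97% of the reads in wild type and 3.69%, 2.33% and 3.52% in Bud31-vKO. The means were 2.58% ± 0.567 (SD, n = 3) and 3.18% ± 0.742 (SD, n = 3), and the groups overlapped. The lowest library of each genotype was the one with the fewest genes detected. In bulk RNA, fewer cells of a type and less of the RNA per cell cannot be told apart.

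Large subunit genes summed to 17737, 15462 and 11458 CPM in wild type against 19225, 13949 and 20829 CPM in Bud31-vKO. Small subunit genes summed to 12608, 12130 and 8031 CPM and to 16257, 9990 and 14649 CPM. Both sums had the same order of libraries within wild type, and in both Bud31-vKO 2 fell inside the wild type range. The means of all 83 genes were 25809 ± 5643 and 31633 ± 6663 CPM (SD, n = 3 each), 1.23 times as high in Bud31-vKO, a gap about as large as the SDs. The part of the depth and gene number of the libraries in that gap was not tested.

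The balance of the subunits did not separate the genotypes when sums were used. The ratio of large to small subunit CPM was 1.41, 1.27 and 1.43 in wild type and 1.18, 1.396 and 1.42 in Bud31-vKO, with means of 1.37 ± 0.0827 and 1.33 ± 0.131 (SD, n = 3 each). Bud31-vKO 1 alone lay below the wild type range, and without it the sign of the difference turned, from -0.03585 to 0.0397. A mean over genes gives each member the same weight, and on that scale, log2(CPM + 1), large minus small was -0.56, -0.65 and -0.55 in wild type and -0.73, -0.71 and -0.68 in Bud31-vKO. These do not overlap, and they are given as a description of the same genes with no test.

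**Figure D1:**
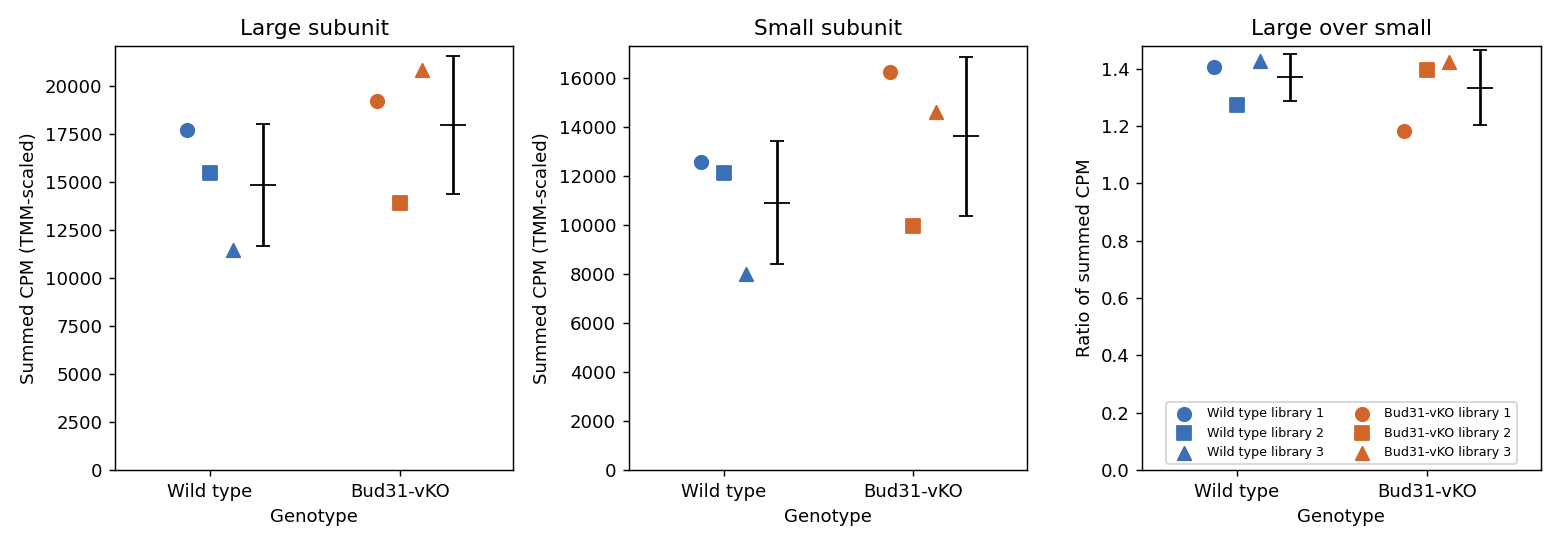
Summed TMM-scaled CPM of the 51 large subunit genes and the 32 small subunit genes, and the ratio of the sums, for each library by genotype (points), with the mean and SD of the 3 libraries beside them. The genotypes overlap in all 3 panels, wild type 3 has the lowest sum of each subunit, and Bud31-vKO 1 has the lowest ratio, 1.18.

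A few genes carried much of the sum. Mean levels reached 1000 CPM in 7 members (Rpl4, Rplp0, Rps3a1, Rpl6, Rps2, Rps3 and Rps6), lay between 100 and 1000 CPM in 41, between 10 and 100 CPM in 25, and under 10 CPM in 10. The 7 abundant members, singled out after their values were seen, held 45.3% to 64.1% of all reads on ribosomal protein genes. Their summed level was 16345, 16662 and 12500 CPM in wild type against 16091, 14529 and 18857 CPM in Bud31-vKO, a ratio of means of 1.09. The other 76 summed to 14000, 10930 and 6990 CPM in wild type against 19391, 9410 and 16621 CPM in Bud31-vKO, a ratio of means of 1.42. Both sums overlapped between the genotypes.

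The order of the members was nearly the same in all libraries. Spearman's rank correlation of the 83 levels ranged from 0.948 to 0.990 over the 15 pairs of libraries, a description across genes that share library, length and copies and are no replicates. Per kilobase of exon the small subunit gene Rps3a1 stood first at 2326 CPM, followed by Rpl4 at 2032 CPM and Rplp0 at 1881 CPM. Rps6, the substrate of S6 kinase, followed with 932 CPM per kilobase, then Rps2, at the mRNA entry channel, with 917 and the stalk protein gene Rplp1 with 715. The length of exon joins all annotated isoforms, and the order depends on it. Per kilobase of the reference transcript the first 5 were the same genes, led by Rpl4 at 2651 CPM before Rps3a1 at 2326 CPM, while Rplp1 moved to rank 14. Among members with a mean of at least 50 CPM, Rpl35a (24.3 CPM per kilobase), Rps19 (25.8), Rpl21 (27.0), Rps24 (28.8), Rps12 (32.3) and Rpl22 (33.6) were at the low end per kilobase of exon. This low end did not hold per kilobase of the reference transcript, where Rpl35a had 174 CPM and Rps19 had 191 CPM, and where Rps20 (51.7 CPM) and Rpl23 (62.4 CPM) were lower.

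**Figure D2:**
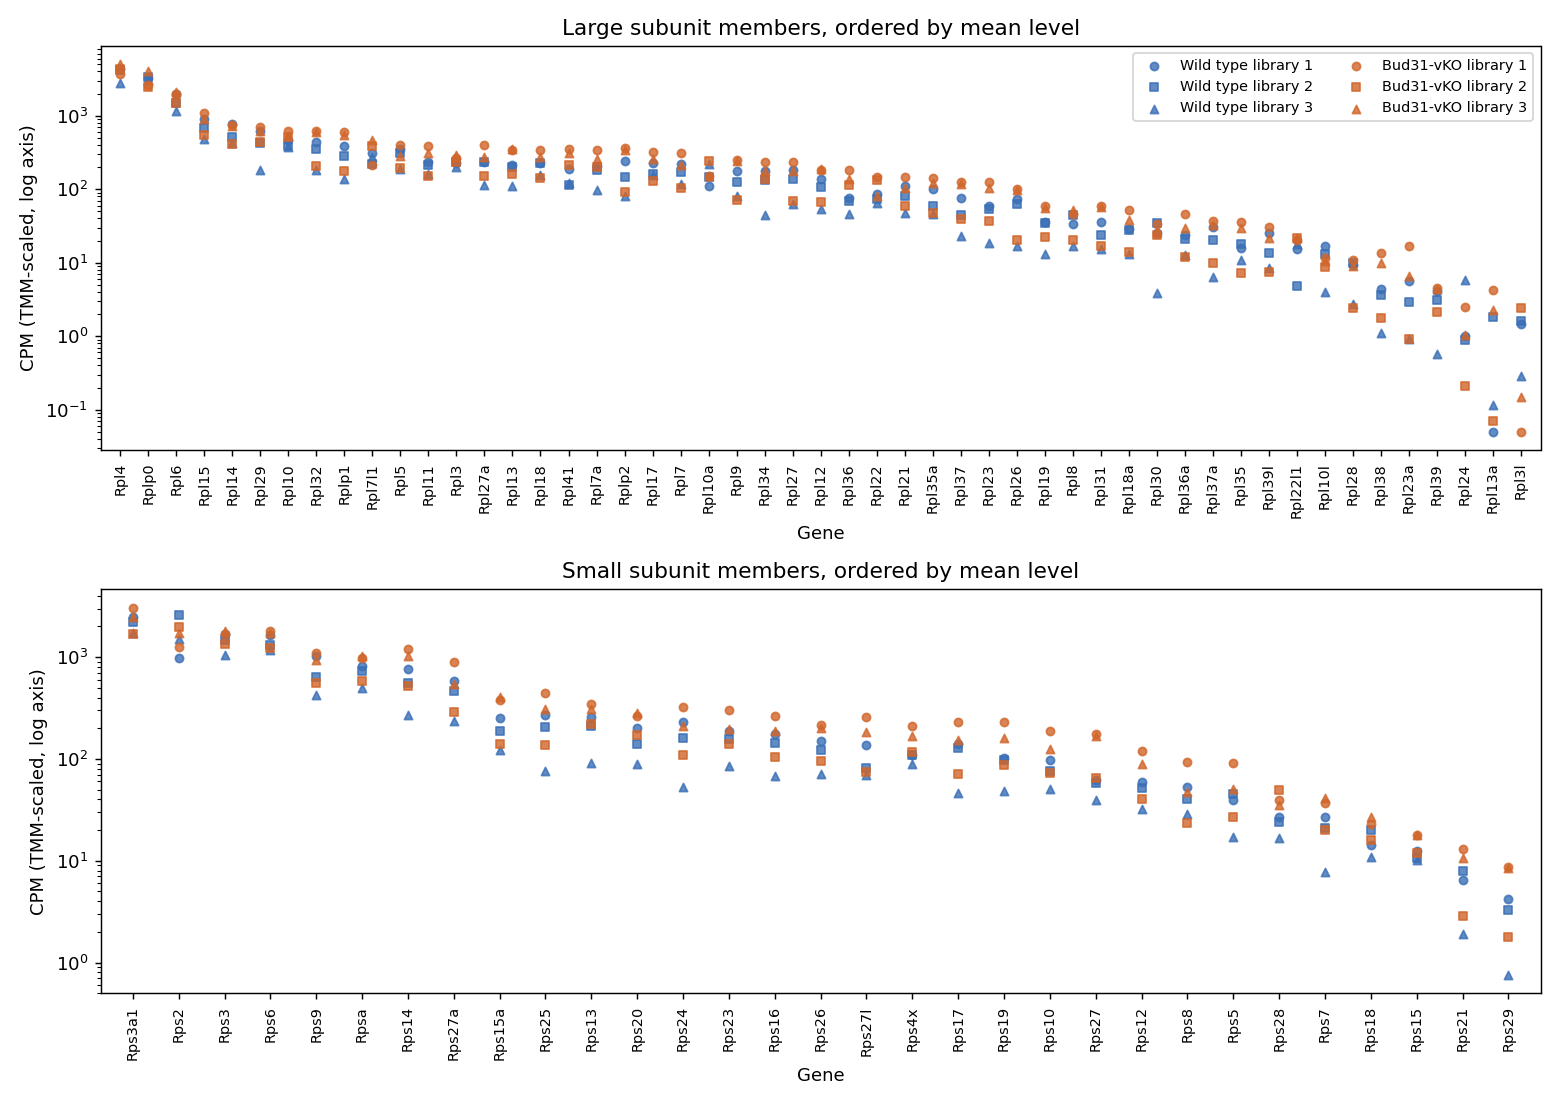
TMM-scaled CPM (log axis) of the 51 large subunit genes (top) and 31 of the 32 small subunit genes (bottom) in each library, ordered by mean level. Libraries with no reads are drawn at 0.05 CPM; wild type 3 (blue triangles) is lowest and Bud31-vKO 1 (orange circles) is highest for 60 of all 83 members each.

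In the test across 15240 genes, no ribosomal protein gene passed an adjusted p of 0.05 by edgeR's quasi-likelihood test, and neither did any other gene (0% called). DESeq2 and limma-voom also called no member, although DESeq2 called 47 other genes. Log2 differences were nonetheless above 0 for 47 of 51 large subunit genes, with a median of 0.51, and for 31 of 32 small subunit genes, with a median of 0.65. Over all tested genes 51.1% were above 0, with a median of 0.02. Members are no replicates of the genotype, and they moved together between libraries, as described further on.

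These medians depended on single libraries. They were 0.78 and 0.83 for large and small subunit genes without wild type 1, 0.29 and 0.36 without wild type 3, 0.30 and 0.36 without Bud31-vKO 1, and 0.78 and 0.88 without Bud31-vKO 2. With only the 4 libraries in which most genes were detected they were 0.54 and 0.64, with 49 of 51 and 31 of 32 above 0. The direction of both medians was the same in all 16 alternative settings.

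At an unadjusted p under 0.05, 3 members differed, all with the higher level in Bud31-vKO, namely Rpl36, Rpl41 and Rps27. Among all tested genes 2.91% reached that p in either direction and 1.08% with Bud31-vKO higher. In 7 members every Bud31-vKO library lay above every wild type library (Rpl10, Rpl22l1, Rpl36, Rpl41, Rps4x, Rps27 and Rps28), against 4.76% of all tested genes. Of these, Rpl10, Rpl41, Rps27 and Rps28 had no stretch of 50 coding bases that was unique among the annotated transcripts. In Rpl36 1.88% of such stretches were unique, so the levels of these genes are uncertain. In no member did every Bud31-vKO library lie below, against 6.39% of all tested genes.

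Among genes of similar abundance, with a mean of at least 50 CPM, 54 of 56 members were above 0 with a median of 0.54. Of the 4544 tested genes at that level 47.0% were above 0, with a median of -0.04. All 5 members that separated there without overlap, Rpl10, Rpl36, Rpl41, Rps4x and Rps27, had the higher level in Bud31-vKO. Of all tested genes at that level 5.28% separated with Bud31-vKO higher and 8.54% with Bud31-vKO lower.

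Rpl36 encodes a short basic protein of the large subunit and lies at chr17:56613416-56614243 on the plus strand of GRCm38. Its level was 76.0, 68.4 and 46.2 CPM in wild type against 181, 114 and 137 CPM in Bud31-vKO. The groups did not overlap, and the log2 difference was 1.18 (SE 0.38, adjusted p = 0.9997 by edgeR). Its coding sequence has 12 close pseudogene copies, whose own reads came to 11 per 100 reads on Rpl36.

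Rpl41, at chr10:128548114-128549305 on the minus strand, encodes the smallest ribosomal protein, a short helix at the bridge between the subunits. It had 188, 115 and 121 CPM in wild type against 349, 212 and 313 CPM in Bud31-vKO, a log2 difference of 1.04 (SE 0.35, adjusted p = 0.9997 by edgeR). All 3 Bud31-vKO libraries exceeded the highest wild type library. No stretch of 50 coding bases in Rpl41 is unique among the annotated transcripts, so its level is uncertain. The start-site window of Rpl41 printed above holds no C or T run longer than 3 bases.

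Rps27, at chr3:90212522-90213651 on the minus strand, encodes a zinc-binding protein of the small subunit. It stood at 61.6, 58.0 and 39.8 CPM in wild type against 175, 65.1 and 168 CPM in Bud31-vKO. Bud31-vKO 2 was only just above wild type 1, and the other Bud31-vKO libraries were far above it. The log2 difference was 1.36 (SE 0.48, adjusted p = 0.9997 by edgeR). The near-identical gene Rps27rt had means of 13.9 ± 3.18 and 23.9 ± 10.8 CPM (SD, n = 3 each), and reads of the pair may be split between them. No stretch of 50 coding bases in Rps27 is unique among the annotated transcripts, so its level is uncertain.

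The following groups order the genes by place in the ribosome. The P stalk, which recruits and activates elongation factors, is formed by Rplp0 at its base with Rplp1, Rplp2 and the neighbouring Rpl12. Rplp0 had 3231, 3352 and 3084 CPM in wild type against 2579, 2440 and 4038 CPM in Bud31-vKO, with a log2 difference of -0.09 (SE 0.29). Bud31-vKO 1 and 2 were below all wild type libraries and Bud31-vKO 3 was above them. Rplp1 (386, 284 and 139 against 604, 180 and 548 CPM) and Rplp2 (245, 145 and 79.6 against 366, 92.1 and 342 CPM) had log2 differences of 0.72 and 0.77. Rpl12 had one of 0.55, so 3 of 4 stalk genes were above 0 and none passed the test.

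Rpl5 and Rpl11 join 5S ribosomal RNA in a particle that docks into the large subunit and that can also bind the p53 regulator Mdm2. Rpl5 had 351, 310 and 188 CPM in wild type against 404, 194 and 283 CPM in Bud31-vKO, a log2 difference of 0.05 (SE 0.38). Rpl11 had 234, 210 and 162 CPM and 388, 153 and 308 CPM, a log2 difference of 0.48 (SE 0.39). Both genes had overlapping genotypes, and in both Bud31-vKO 1 was the highest library.

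Next to the site of peptide bond formation lie Rpl3, Rpl8 and Rpl10, whose log2 differences were 0.25, 0.32 and 0.42. Rpl10, an X-linked gene whose protein joins the large subunit late, varied little: it had 463, 390 and 378 CPM in wild type against 613, 516 and 523 CPM in Bud31-vKO. Its groups did not overlap (adjusted p = 0.9997 by edgeR). No stretch of 50 coding bases in Rpl10 is unique among the annotated transcripts, so its level is uncertain. Over all 6 libraries the SD of log2(CPM + 1) was 0.19 for Rpl3 and 0.27 for Rpl10, which includes the gap between the genotypes. Rpl3 had means of 221 ± 18.0 and 263 ± 32 CPM (SD, n = 3 each).

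All 8 genes listed around the exit of the peptide tunnel had log2 differences above 0, from 0.38 in Rpl17 to 1.39 in Rpl23a, with a median of 0.68 and no gene past the test. The Rpl23a value rests on few reads, 3.14 ± 2.33 and 8.25 ± 8.22 CPM (SD, n = 3 each). Rpl22 had 86.7, 74.6 and 65.0 CPM in wild type against 146, 132 and 81.9 CPM in Bud31-vKO, with a log2 difference of 0.67 (SE 0.38).

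Rpl23 and Rpl37 completed the large subunit genes with the highest differences among those of at least 50 CPM. Rpl23, which lies on the face toward the small subunit, had 59.4, 53.8 and 18.7 CPM in wild type against 124, 37.3 and 103 CPM in Bud31-vKO. Rpl37 had 75.8, 43.9 and 23.2 CPM and 125, 38.7 and 117 CPM. Their log2 differences of 1.0 and 0.97 had standard errors of 0.64 and 0.63, and in both genes Bud31-vKO 2 fell below wild type 1.

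At the other end stood Rpl14 (log2 difference 0.14) and Rpl10a (0.17). Rpl10a ran against nearly every other member: it had 112, 146 and 223 CPM in wild type against 151, 240 and 149 CPM in Bud31-vKO. Its highest libraries were wild type 3 and Bud31-vKO 2, the ones with the fewest genes detected. Rpl4, whose protein reaches into the peptide tunnel, had 4385, 4197 and 2794 CPM and 3746, 4333 and 5008 CPM, a log2 difference of 0.20 (SE 0.29).

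In the small subunit, all 13 genes of the head were above 0, with a median log2 difference of 0.73 and a range from 0.20 in Rps3 to 1.20 in Rps29. Rps19, a head protein gene mutated in Diamond-Blackfan anaemia, had 103, 98.2 and 48.3 CPM in wild type against 229, 87.2 and 159 CPM in Bud31-vKO, a log2 difference of 0.93 (SE 0.48). Rps12 had 59.8, 51.7 and 32.3 CPM and 119, 40.7 and 89.8 CPM, with a log2 difference of 0.80. In each of these genes Bud31-vKO 2 lay inside the wild type range. Rps28 had 26.6, 24.0 and 16.6 CPM in wild type against 39.7, 49.2 and 35.2 CPM in Bud31-vKO, and there Bud31-vKO 2 was the highest library.

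Of 17 genes of the body and platform, 16 were above 0, with a median of 0.58. The exception was Rps2, which had 989, 2615 and 1507 CPM in wild type against 1263, 1982 and 1719 CPM in Bud31-vKO and a log2 difference of -0.04 (SE 0.40). Its wild type libraries spanned the whole range of the Bud31-vKO libraries, and the sign of its difference turned positive with RLE scaling. Rps3a1, among the most abundant members per length, had 2466, 2219 and 1740 CPM and 3061, 1695 and 2455 CPM, a log2 difference of 0.17. Rps6 had a log2 difference of 0.20 (SE 0.28). Rps4x, the X-linked gene of the body, had 109, 110 and 89.0 CPM and 210, 118 and 169 CPM, without overlap, and a log2 difference of 0.69 (SE 0.35).

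The 4 X-linked members (Rpl10, Rpl36a, Rpl39 and Rps4x) had log2 differences from 0.42 to 0.69 with a median of 0.55, the same as the median of all 83 members (0.55).

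Paralogs were present at very different levels. Rpl10l, an autosomal relative of Rpl10 known from male germ cells, is 84.7% identical to it over 642 coding bases and had 16.7, 13.1 and 3.99 CPM in wild type against 11.7, 8.86 and 10.7 CPM in Bud31-vKO. Rpl39l, a germ cell relative of Rpl39 (85.5% over 152 bases), had 25.1, 13.4 and 8.5 CPM and 30.5, 7.51 and 21.9 CPM. It was the higher of the pair per kilobase of exon, 21.4 CPM against 2.19 CPM for Rpl39, and per kilobase of the reference transcript, 32.4 CPM against 5.14 CPM, although Rpl39 has 18 close pseudogene copies that can divide its reads and Rpl39l has none. Both paralogs overlapped between the genotypes, with log2 differences of -0.11 (Rpl10l) and 0.35 (Rpl39l).

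Rpl22l1, the relative of Rpl22 (74.6% over 299 bases), had 15.6, 4.83 and 17.9 CPM in wild type against 20.4, 21.8 and 21.5 CPM in Bud31-vKO. The 3 Bud31-vKO values lay close together above all wild type values, and the log2 difference was 0.73 (SE 0.97). Rps27l, which is known as a p53 target, had 138, 82.3 and 68.8 CPM and 260, 74.8 and 184 CPM, with a log2 difference of 0.84 (SE 0.52). Rpl7l1, a relative of Rpl7 whose yeast counterpart acts in ribosome assembly, had 315, 222 and 276 CPM and 211, 387 and 471 CPM, a log2 difference of 0.39. Rpl3l, the striated muscle relative of Rpl3, stayed at 2.41 CPM or less in every library, with no reads in Bud31-vKO 1.

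Rps4l is annotated as a transcribed processed pseudogene and so is no member. It had 239, 175 and 95 CPM in wild type against 137, 157 and 187 CPM in Bud31-vKO, a log2 difference of -0.08 (SE 0.39). Of the ribosomal proteins whose symbols fall outside the rule, Fau (the precursor of Rps30) had a log2 difference of 0.48, Rack1 one of 0.10, Rps27rt one of 0.78 and Rpl36al one of 0.60. Rpl36al averaged at most 3.10 CPM in either genotype, and its sign turned in some settings.

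Among the genes with a mean under 10 CPM were Rpl3l, Rpl13a, Rpl23a, Rpl24, Rpl28, Rpl38, Rpl39, Rps21 and Rps29, though their proteins, Rpl3l apart, are common components of the ribosome. Rpl13a ranged from no reads in wild type 1 to 4.29 CPM in Bud31-vKO 1, and its log2 difference of 1.77 had a standard error of 2.24. Rpl24 had 1.01, 0.88 and 5.73 CPM in wild type against 2.47, 0.21 and 1.03 CPM in Bud31-vKO, the lowest log2 difference of all members at -1.03 (SE 1.72). The floor for counting error was set at 3 reads, or 0.165 to 0.220 CPM.

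Low counts met with copied sequence in several of these genes. Annotated pseudogenes at least 90% identical over at least 80% of a member's coding sequence numbered 970 in all, of which 872 had a row in the table. The copies of Rpl23a held 846 reads for every 100 on Rpl23a, those of Rpl24 615 and those of Rpl39 121. In 29 members no stretch of 50 coding bases was unique among the annotated transcripts, and how reads with several matches were counted is not given in the sources used here, so the levels of these genes are uncertain. Over all members the copies held 4.93 to 6.83 reads per 100 member reads, with means of 5.91 ± 0.282 in wild type and 5.95 ± 0.957 in Bud31-vKO (SD, n = 3 each).

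Copy number itself went with neither level nor difference across the 83 genes. Pearson's r and Spearman's rho with the number of copies were 0.12 and 0.09 for the log2 level and 0.02 and 0.04 for the log2 difference. Within subunits the values for the log2 difference had opposite signs, 0.10 and 0.17 in the large and -0.31 and -0.14 in the small. The genes share libraries and are no replicates, so these are descriptions. Copies ranged from none in 6 members to 76 in Rpl21, with a median of 8.

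The members moved together between libraries. For each gene the deviation of log2(CPM + 1) from its own mean over the 6 libraries was taken, and the average profile of the 83 genes held 63.8% of their summed squared deviations. The share was 57.9% for the large and 75.1% for the small subunit, 20.4% for 76 mitochondrial ribosomal protein genes and 6.83% for all tested genes. TMM scaling itself holds the bulk of genes nearly level between libraries, so the last share is low in part by construction. The average deviation of the 83 members was 0.15, -0.08 and -0.83 in wild type and 0.70, -0.43 and 0.48 in Bud31-vKO. The range within each genotype was thus larger than the gap between the genotype means. Wild type 3 was the lowest library for 60 of 83 members and Bud31-vKO 2 for 16, and Bud31-vKO 1 was the highest for 60.

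**Figure D3:**
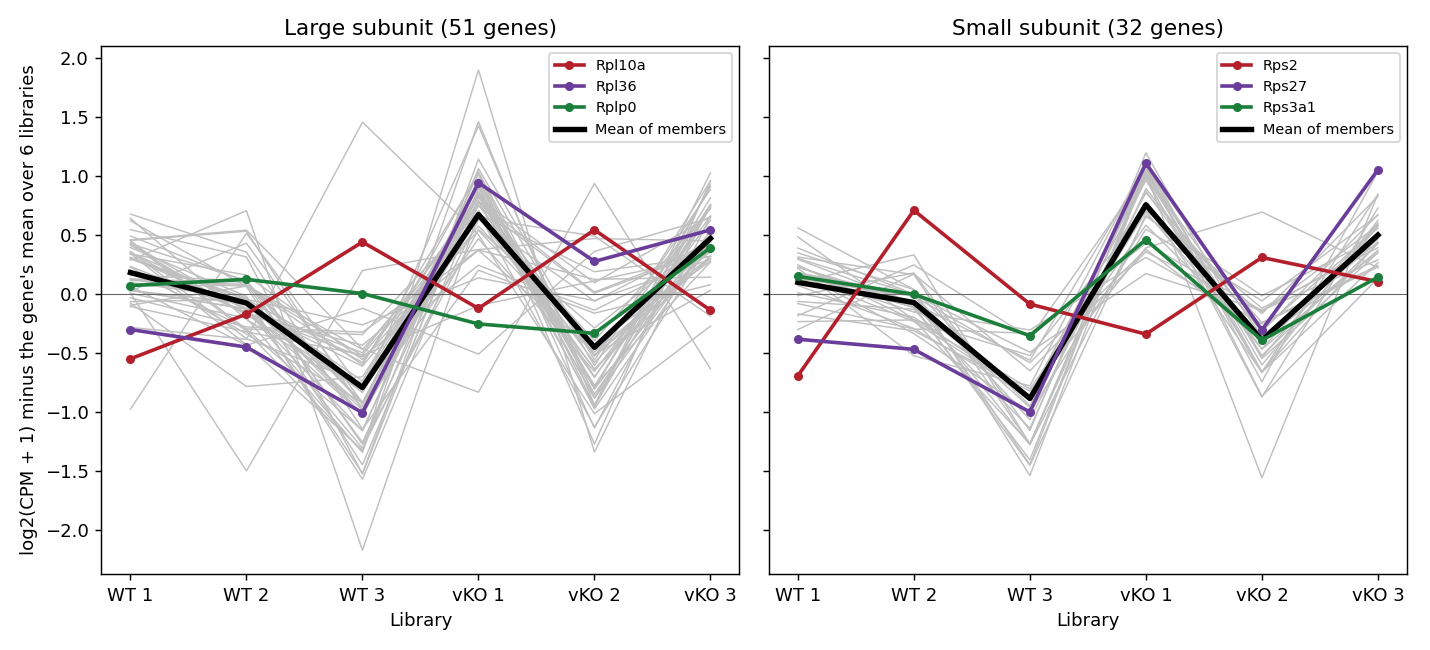
Deviation of log2(CPM + 1) from each gene's mean over the 6 libraries, for large (left) and small subunit genes (right), with every member in grey, the mean of the members in black and 3 members per subunit in colour. The members dip together in wild type 3 (WT 3) and Bud31-vKO 2 (vKO 2), while Rpl10a and Rps2 run differently from the mean.

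Not every member followed. Pearson's r of a gene with the average profile had a median of 0.94 and was above 0.8 in 66 of 83 members, over only 6 libraries and as a description. It was negative in Rpl10a (-0.70), Rpl3l (-0.42), Rps2 (-0.29), Rpl24 (-0.23) and Rpl7l1 (-0.05), and low in Rpl22l1 (0.11) and Rplp0 (0.20). Rps2 and Rplp0 are among the 7 most abundant members, and Rpl3l, Rpl7l1 and Rpl22l1 are paralogs. The spread of a member over the libraries was smaller for abundant genes, with a correlation of -0.60 (Pearson) and -0.59 (Spearman) with the log2 level.

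Coding length went with the size of the difference across members. The 28 members with the shortest coding sequences (75 to 399 bases) had a median log2 difference of 0.71 and all lay above 0. The 27 of middle length (405 to 576 bases) had 0.54 and the 28 longest (582 to 1257 bases) 0.31, with 24 of 28 above 0. Across the 83 genes, Pearson's r with coding length was -0.51 and Spearman's rho -0.59, with -0.44 and -0.57 in the large and -0.74 and -0.64 in the small subunit. The largest differences at a mean of at least 50 CPM were in short members, Rpl41 (75 bases), Rps27 (252) and Rpl36 (315). Rplp0 (951) and Rps2 (879), with negative differences, were long.

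The same order held in other genes, at smaller values. Tested protein-coding genes outside the family had medians of 0.23 (630 genes, 63.2% above 0) in the shortest band, 0.07 (862 genes) in the middle band and -0.02 (4241 genes) in the longest band. The gap between libraries went with length too. The mean log2(CPM + 1) of the libraries with the fewest genes detected, minus that of the other 4, had a median of -1.17 in the shortest members, -1.15 in the middle band and -0.70 in the longest. In other genes of these bands the medians were -0.87, -0.62 and -0.47. At a mean of at least 50 CPM they were -1.09, -1.12 and -0.49 in members and -0.62, -0.25 and -0.10 in other genes. At that level the shortest members thus did not have a lower median than those of the middle band. The part of this library difference in the relation with length was not tested.

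**Figure D4:**
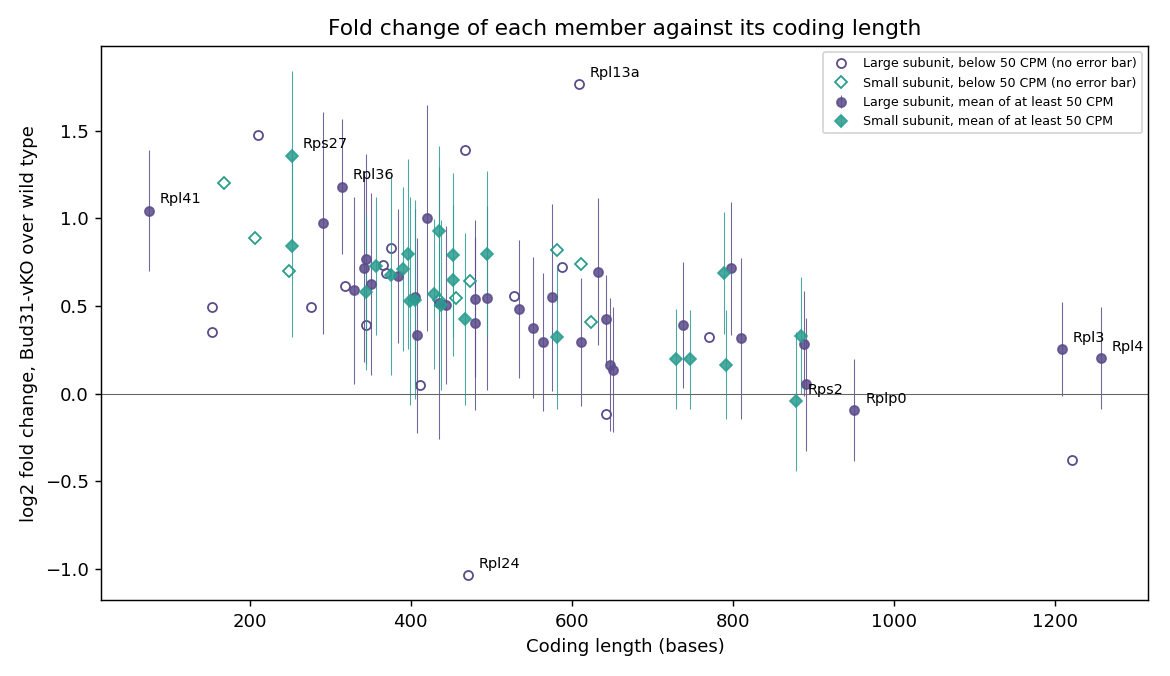
Log2 difference of Bud31-vKO over wild type (edgeR) against coding length in bases for each member, filled with standard error bars for a mean of at least 50 CPM and open without bars below it. The median was 0.71 over the 28 shortest members, 0.54 over the 27 of middle length and 0.31 over the 28 longest, with members scattered widely around it, and most bars reach 0 or come near it.

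A pyrimidine run anywhere in the start-site window did not mark off members with larger differences. The run can lie wholly upstream of the annotated start, as in Rpl4. The split therefore cannot separate members with a TOP motif from those without. The 35 members with a run of at least 6 bases had a median log2 difference of 0.58 (range -0.04 to 1.77) and the 28 without had 0.51 (range -1.03 to 1.04). Median mean levels were 150 and 127 CPM. Rps27, with a run of 9 bases, and Rpl41, with one of 3, both had differences above 1, as the windows printed above show side by side.

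Other mRNAs with a TOP start, not matched to the ribosomal protein genes for coding length, did not share their median. Of 20 such genes for translation factors and related proteins 9 were above 0, with a median of -0.05. Eef1a1, the most abundant of them, which brings aminoacyl-tRNA to the ribosome, had 8643, 8761 and 8550 CPM in wild type against 6673, 7159 and 9659 CPM in Bud31-vKO. Tpt1, with a log2 difference of 0.92 (SE 0.52), had 359, 238 and 106 CPM and 628, 237 and 466 CPM, the order of libraries seen in the ribosomal protein genes. Eif3k had 6.68 ± 3.48 and 23.4 ± 15.3 CPM (SD, n = 3 each), the largest log2 difference of the list at 1.81 (SE 1.10). Members of 582 to 1257 bases had a median of 0.31, and other genes of that length with at least 50 CPM one of -0.06. The part of coding length in the contrast with TOP mRNAs was not tested.

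Mitochondrial ribosomal protein genes were centred near 0, with 29 of 76 above 0 and a median of -0.08. Mrpl32 had 8.19, 10.3 and 3.36 CPM in wild type against 41.0, 30.3 and 33.3 CPM in Bud31-vKO, without overlap, a log2 difference of 2.26 (SE 0.90, adjusted p = 0.9997 by edgeR). Mrpl36 went the other way with a log2 difference of -1.29 (SE 0.56). No gene of the list passed the adjusted test.

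Ribosome assembly factors leaned below 0, with 24 of 80 above 0 and a median of -0.17. In 9 of the 80 every Bud31-vKO library lay below every wild type library. That held for 6.39% of all tested genes and for 8.54% of those with a mean of at least 50 CPM. By edgeR 4 of the 80 had an unadjusted p under 0.05, against 2.91% of all tested genes. Ftsj3, a methyltransferase of large subunit assembly, had 175, 303 and 392 CPM in wild type against 63.4, 167 and 123 CPM in Bud31-vKO, a log2 difference of -1.30 (SE 0.46, adjusted p = 0.9997 by edgeR). Ltv1, which acts in export and maturation of the small subunit, had 113, 120 and 183 CPM and 58.8, 23.2 and 76.8 CPM, a log2 difference of -1.39 (SE 0.51). The ribosomal protein genes and the factors that assemble them thus had medians on opposite sides of 0, a difference that was not tested. The lists were not matched for coding length. Among genes of at least 50 CPM outside the family with coding sequences longer than any member's, the median was -0.09, with 45.1% above 0.

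RNA polymerase I genes, which transcribe the large ribosomal RNA precursor, had 11 of 20 above 0 and a median of 0.16. The largest subunit gene Polr1a had a log2 difference of 1.03 (SE 0.52) and the activator gene Ubtf one of -0.82 (SE 0.41). Genes of mTOR, LARP1 and Myc had 8 of 16 above 0 and a median of 0.03. Myc, an activator of ribosome production, had 58.1, 36.7 and 77.6 CPM in wild type against 123, 100.3 and 129 CPM in Bud31-vKO, without overlap, and a log2 difference of 1.03 (SE 0.42, adjusted p = 0.9997 by edgeR). Tsc1, a brake on mTOR, had means of 46.5 ± 2.33 and 72.1 ± 29.4 CPM (SD, n = 3 each).

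All 6 genes listed for the p53 response to free Rpl5 and Rpl11 were above 0, with a median of 0.46, none passed the test and the genotypes overlapped in each. Cdkn1a had 19.1, 6.48 and 37.9 CPM in wild type against 49.3, 19 and 83.9 CPM in Bud31-vKO. Mdm4 (log2 difference 0.44) was highest in Bud31-vKO 2, and its sign turned without that library. Of 11 tested genes that host small nucleolar RNAs 7 were above 0, with a median of 0.49. Snhg15 had 9.35, 10.1 and 3.36 CPM and 45.2, 30.1 and 16.8 CPM, without overlap, and a log2 difference of 2.01 (SE 0.97). Epb41l4aos, at 0.70 ± 0.315 and 2.99 ± 1.80 CPM (SD, n = 3 each), had a log2 difference of 2.07 (SE 1.59), and its genotypes overlapped.

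**Figure D5:**
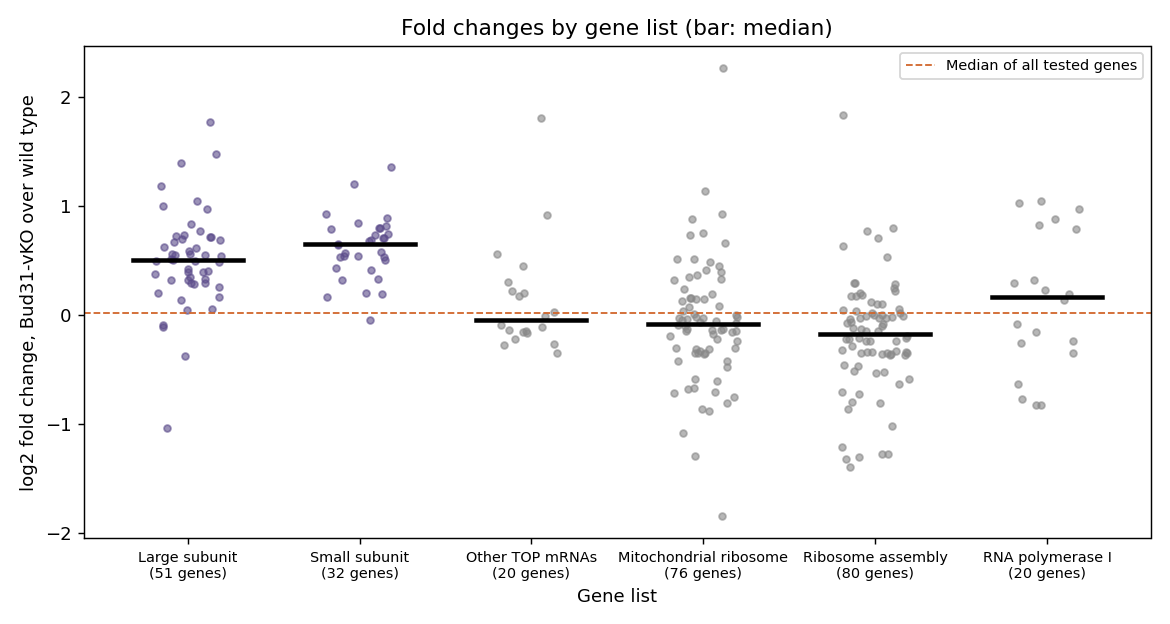
Log2 difference of Bud31-vKO over wild type (edgeR) for each tested gene (points) of 6 lists, with the list's median as a bar and the median of all tested genes as a dashed line. Medians were 0.51 and 0.65 for large and small subunit genes and between -0.17 and 0.16 for the other TOP mRNAs, mitochondrial ribosomal proteins, assembly factors and RNA polymerase I.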

How the data were processed

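The authors deposited unscaled read counts, in whole numbers with unequal totals, for 6 Smart-Seq2 libraries. bcl2fastq and the build mm10 are named in the submitters' processing notes. The sources used here do not give the aligner, counter, annotation, strand use or treatment of reads with several matches. Symbols, coordinates, exon and coding lengths came from GENCODE M21 on GRCm38 (51719 of 51912 identifiers matched, 99.6%), start windows from RefSeq on GRCm38.p6, and pseudogene copies from blastn 2.17.0. The members and lists were chosen with earlier results of these data known.

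Genes were kept with filterByExpr (minimum count 10, minimum total 15), scaled by TMM and compared with the quasi-likelihood F test of edgeR 4.0.16 over all 15240 genes, with Benjamini-Hochberg adjustment at 0.05, in R 4.3.3. The biological coefficient of variation was 119%. The steps were also run on simulated data. That run does not show that the adjusted test can find changes at this spread between libraries. A gene that was not called may still differ. An exact permutation test of 3 against 3 libraries cannot go below 0.1 and was not used. Alternatives were other scalings, other filters, DESeq2 1.42.0, limma-voom (limma 3.58.1), a block for the library number, and libraries left out.

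Named by rule were Bud31, paralogs and their parents, and stalk, 5S-particle, peptidyl-transferase and low-count members. The rule added, per subunit at a mean of at least 50 CPM, the 4 highest and 4 lowest log2 differences and the 3 highest and 3 lowest levels per kilobase. Of every other list it took the 2 genes with the smallest p. Other names were chosen after values were seen. Some genes that this rule names are not reported here.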

Additional observations from a re-analysis of the deposited data

How the results depend on the processing

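Over 16 alternative settings no ribosomal protein gene passed an adjusted p of 0.05. Of 122 summary values 119 kept their direction and moved by less than the SD between libraries or, for counts, by at most 1.5 times. These limits are wide, since that SD is about as large as the medians themselves, so the count is no measure of stability. Of 1000 values for single genes 960 kept their direction. The number of genes called was 0 with edgeR (443 at an unadjusted p under 0.05), 7 without a filter (5 higher, 2 lower in Bud31-vKO) and 47 with DESeq2 (17 higher, 30 lower; 753 at an unadjusted p under 0.05). Leaving out a library gave medians of 0.29 to 0.78 for large and 0.36 to 0.88 for small subunit genes, and -0.0832 to 0.0397 for the difference of the subunit ratio. Same-numbered libraries correlated in their deviations at 0.18, 0.08 and -0.04, not every library correlated best with its own number, and the labels name no pairing. With the library number as a replicate block 0 genes were called (412 at an unadjusted p under 0.05) and the medians were 0.48 and 0.62.

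Log2 differences near 0 or of rare genes changed sign. Rps2 was 0.0121 with RLE scaling, 0.0121 with DESeq2, 0.0157 with limma-voom and 0.0485 with the block. Rpl10l was 0.0898 with the block and 0.16 with limma-voom, Rps4l 0.003 and 0.0297, and Rpl36al -1.60 and -1.86. Rpl28 was -0.0025 with limma-voom. In the 4 libraries with most genes Rplp0 was 0.0178, Rpl24 0.89 and Mdm4 -0.0955. Leaving out each library in turn gave -0.36 to 0.0462 for Rplp0, -0.22 to 0.29 for Rpl5, -0.0145 to 0.41 for Rpl14, -0.0894 to 0.51 for Rpl10a and -0.32 to 0.40 for Rps2. The ranges were -0.0245 to 0.37 for Rps3a1, -3.77 to 0.24 for Rpl3l, -0.50 to 0.28 for Rpl10l, -0.0734 to 0.86 for Rpl39l, -0.35 to 0.25 for Rps4l and -0.0777 to 0.66 for Rpl7. They were -0.0383 to 0.33 for Rack1, -3.16 to 1.20 for Rpl36al, -2.01 to 0.40 for Rpl24, -0.32 to 0.48 for Rpl28 and -0.032 to 0.70 for Mdm4. The cause of these changes was not tested.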
